A study of Mus musculus with 6 samples.

Results

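C/D box small nucleolar RNAs (snoRNAs) were examined in atrioventricular canal regions of the embryonic mouse heart, which hold the forming mitral, tricuspid and aortic valves. The members were the listed genes that the mm9 GENCODE annotation types as snoRNA and whose symbol starts with Snord, SNORD or snoU13. The 18 listed members in an imprinted cluster on chromosome 12 were left out. This rule found 133 of the 18810 listed genes, and it used no expression value. Of them, 59 carry a Snord symbol, 69 a SNORD symbol given by sequence similarity, and 5 are predicted U13 copies (snoU13). The annotation holds 351 genes that meet the same rule.

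The study compared hearts without Scleraxis (Scx), a basic helix-loop-helix transcription factor of tendons and valves, with wild-type littermates. There were 3 Scx-/- and 3 Scx+/+ libraries from C57BL/6 embryos at embryonic day 15.5, and both genotypes were otherwise untreated. Scx itself, counted over both of its annotated exons, read 33.6, 18.6 and 82.9 RPKM in the libraries labelled Scx-/- and 29.5, 58.3 and 26.0 RPKM in those labelled Scx+/+, where RPKM is the read count scaled by exon length and library depth. The study measured lower expression of the first exon of Scx before sequencing. A value over the whole gene is no check of that loss, and genotypes below are those of the labels. The methods give 3 embryos of each genotype, and p-values measure the spread between these libraries.

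C/D box snoRNAs are short nucleolar RNAs named for 2 sequence elements, the C box near the 5′ end and the D box near the 3′ end, which bind a core of Fibrillarin (Fbl), Nop56, Nop58 and Nhp2l1. Most guide Fibrillarin to add a methyl group to the 2′ oxygen of a ribosomal RNA (rRNA) or spliceosomal RNA base that pairs with the snoRNA. A few, such as U8, U14 and U22, are needed for cleavage of the rRNA precursor. Most vertebrate members are not transcribed on their own but are trimmed from introns of host genes, many of which encode ribosomal proteins or, as Gas5 and Snhg1 do, no protein.

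The members measured 60 to 238 nt, with a median of 76 nt, and 15 were 100 nt or longer. The sequence of 80 members (60.2%) held the C box letters TGATGA in the first 25 bases, and that of 121 (91.0%) held them with at most 1 letter off. The D box letters CTGA stood in the last 20 bases of 130 members (97.7%). Only the given strand of each gene was searched. Both boxes, with at most 1 letter off in the C box, stood in 120 members (90.2%), against 1 of 222 listed H/ACA box snoRNAs (0.450%), the other large class, which guides pseudouridylation. The 3 most abundant members of different hosts are printed first, 5′ to 3′ as read from the mm9 genome, with the C and D boxes in capitals. Snord17 lies on the minus strand at chr2:144091715-144091952, Snord22 on the plus strand at chr19:8800356-8800481, and SNORD75 on the plus strand at chr1:162965981-162966042.

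Snord17: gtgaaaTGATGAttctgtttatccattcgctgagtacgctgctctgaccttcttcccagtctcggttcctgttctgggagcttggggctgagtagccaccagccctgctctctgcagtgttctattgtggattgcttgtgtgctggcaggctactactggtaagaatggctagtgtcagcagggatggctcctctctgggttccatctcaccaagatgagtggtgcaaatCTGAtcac
Snord22: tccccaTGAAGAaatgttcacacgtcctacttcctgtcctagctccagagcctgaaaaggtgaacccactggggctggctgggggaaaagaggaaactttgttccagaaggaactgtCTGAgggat
SNORD75: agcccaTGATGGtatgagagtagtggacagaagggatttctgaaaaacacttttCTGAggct

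Shown next are 5 of the 6 members whose genotype difference passed the test whichever library was dropped, and Snord95, which was lower in Scx-/-. Snord99 lies at chr4:131866606-131866679, SNORD59 at chr10:127521199-127521272, SNORD29 at chr19:8799582-8799646, Snord104 at chr11:106362307-106362376 and Snord95 at chr11:48616641-48616708, all on the plus strand. SNORD101 lies on the minus strand at chr10:23506276-23506349. Each of these 6 has the full C box.

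Snord99: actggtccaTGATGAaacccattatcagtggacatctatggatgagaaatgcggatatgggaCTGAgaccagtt
SNORD59: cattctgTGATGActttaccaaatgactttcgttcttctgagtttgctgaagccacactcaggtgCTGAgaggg
SNORD29: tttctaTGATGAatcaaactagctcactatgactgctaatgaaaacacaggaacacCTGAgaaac
Snord104: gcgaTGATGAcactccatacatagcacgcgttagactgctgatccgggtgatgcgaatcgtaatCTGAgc
SNORD101: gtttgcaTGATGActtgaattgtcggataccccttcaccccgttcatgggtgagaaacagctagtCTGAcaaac
Snord95: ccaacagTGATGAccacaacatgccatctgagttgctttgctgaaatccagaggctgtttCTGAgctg

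A host gene on the same strand contained 118 members, 91 in protein-coding genes (30 of them in ribosomal protein genes) and 27 in non-coding genes. By the annotation 67 members lay wholly in introns, 51 overlapped an exon of a host transcript, and 15 lay outside other genes of their strand. Host mRNA and snoRNA could not be told apart where they overlap. The mean RPKM of the member was above that of its host for 3 of the 51 members in exons and for 2 of the 65 intronic members with a listed host. An exon of a gene on the opposite strand overlapped 3 members, and no source used here states that counting used the strand.

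Some members could not be told apart from each other. SNORD50 had 5 listed genes on chromosome 9, of which 4 form 2 pairs of identical sequence. Of these, the copies at chr9:88752531-88752602 and chr9:88416635-88416706 differed by 1 read in 1 library and had the same reads in the other 5.

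SNORD50: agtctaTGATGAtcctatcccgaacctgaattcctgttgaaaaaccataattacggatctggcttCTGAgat

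Reads per gene were recovered from RPKM, exon length and library depth, and depth was 52322450, 66992220 and 59739000 reads in Scx-/- and 60028800, 46429550 and 68571886 reads in Scx+/+. The summed RPKM over all genes was 820019 to 1240390 in 5 libraries and 2295481 in Scx+/+ 2, in which the 222 H/ACA box snoRNAs also summed to 5684 RPKM against 1381 to 2998 RPKM elsewhere. The part of this library in the results below was not tested, and the summed level, the median fold change and the count of called members are also given without it. Valve mesenchyme, endothelium and cardiomyocyte markers were all listed, and 0 of these 16 genes passed an unadjusted p of 0.05. Cardiomyocyte markers summed to 7802 to 12952 RPKM and valve mesenchyme markers to 354 to 522 RPKM. The macrophage gene Cd68 was higher in Scx-/- at 1.00 ± 0.48 against 0.31 ± 0.19 RPKM (SD, n = 3), and the other 3 macrophage markers did not pass. Erythroid markers summed to 2535 to 4388 RPKM, and of 5 neuron markers 3 were listed, at a sum of 1.61 to 4.33 RPKM. In bulk tissue, fewer cells of a type and less RNA per cell cannot be told apart.

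C/D box snoRNAs were a small share of the reads. They took 2560, 4769 and 4049 reads in Scx-/- and 2829, 3407 and 4484 in Scx+/+. In reads per 1000000 these are 48.9, 71.2 and 67.8 in Scx-/- and 47.1, 73.4 and 65.4 in Scx+/+, and the widest 95% Wilson interval, for Scx+/+ 2, ran from 71.0 to 75.9. The intervals cover counting error only. The genotypes overlapped fully on this measure, at 62.6 ± 11.99 against 62.0 ± 13.5 reads per 1000000 (SD, n = 3).

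RPKM divides reads by length, so in a sum of RPKM each read of a shorter member weighs more. Summed RPKM was 520, 727 and 643 in Scx-/- and 482, 605 and 558 in Scx+/+. The mean was 630 ± 104 against 548 ± 62.4 (SD, n = 3), a log2 ratio of 0.20 that is smaller than the pooled SD of log2 sums of 0.21. Without Scx+/+ 2 the log2 ratio was 0.28. An exact two-sided permutation test of 3 against 3 libraries could not have given a p under 0.10. The 118 members under 100 nt summed to 418, 546 and 443 RPKM in Scx-/- and to 363, 368 and 364 RPKM in Scx+/+, with no overlap. The 15 members of 100 nt or longer overlapped, at 101, 181 and 200 RPKM in Scx-/- against 118, 238 and 194 RPKM in Scx+/+. Long members took 50.01% of all C/D box reads, mostly through Snord17.

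**Figure D1:**
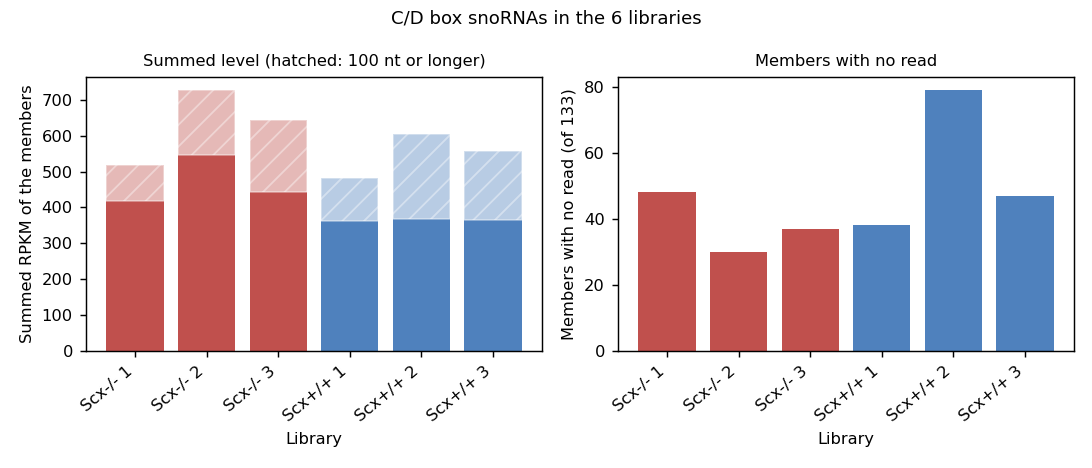
Left, summed RPKM of the 133 C/D box snoRNAs in each library, with members under 100 nt as solid bars and members of 100 nt or longer hatched on top. Right, the number of members with no read in each library. Red marks Scx-/- and blue Scx+/+, and Scx+/+ 2 stands out with 79 members without a read.

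Most members were close to the limit of detection. The median member had a mean of 7.15 reads per library, 101 members stayed under 50 reads in all 6 libraries and 29 of these under 10. Only 34 members had a read in all 6 libraries, and 17 had reads in only 1 library. In 70 members the reads jumped from 0 in at least 1 library to 10 or more in another. Among the 66 members with a mean of 5 to 50 reads, the median ratio of variance to mean within genotypes was 10.9, where counting error alone gives 1. The 782 genes of 1000 nt or longer with as many reads had a ratio of 24.2.

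The number of members with no read was 48, 30 and 37 in Scx-/- and 38, 79 and 47 in Scx+/+. Scx+/+ 2 had the most of all and was also the shallowest library. After each library was thinned to its depth, members expected to keep a read numbered 83.7, 102 and 94.7 in Scx-/- and 92.3, 54.0 and 83.3 in Scx+/+. The genotypes still overlapped. Scx+/+ 2 alone lacked reads for 16 members that every other library detected. In the same library 24 of 51 members in exons and 45 of 67 intronic members had no read.

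The 10 members with the highest mean RPKM took 60.4% of the C/D box reads, and 0 of them were called by the test described below. Snord17, a large C/D box RNA in an intron of Snx5, read 44.6, 73.7 and 81.7 RPKM in Scx-/- and 47.2, 145 and 114 RPKM in Scx+/+. It was the highest member in every library, with 555 to 1860 reads. Its log2 fold change of Scx-/- against Scx+/+ was -0.51 ± 0.40 (SE), and the genotypes overlapped. With each library dropped in turn it ranged from -0.99 to -0.18, and Snord17 was called, as lower in Scx-/-, only without Scx+/+ 1. Snord17 made up 47.0% of all C/D box reads in Scx+/+ 2 and 41.5% in Scx+/+ 3, and 21.7 to 28.7% in the other 4 libraries. Without it the summed RPKM was 475, 654 and 561 in Scx-/- against 434, 460 and 444 in Scx+/+, which do not overlap. The reads without it, not scaled for depth, were 2005, 3594 and 2887 in Scx-/- and 2155, 1807 and 2624 in Scx+/+, which overlap.

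Snord22 (U22), which is needed for maturation of the small-subunit rRNA, read 20.8, 57.8 and 71.2 RPKM in Scx-/- and 40.9, 32.6 and 43.6 RPKM in Scx+/+. Scx-/- held both the lowest and the highest library, and the log2 fold change was 0.19 ± 0.40 (SE). It was 0.73 and was called without Scx-/- 1, and it was -0.16 without Scx-/- 3. SNORD75, from Gas5, read 33.9, 53.2 and 35.4 RPKM in Scx-/- and 32.8, 13.5 and 32.7 RPKM in Scx+/+. Its genotypes did not overlap, but the difference did not pass the test, with a log2 fold change of 0.71 ± 0.35 (SE). SNORD44, also from Gas5, was at 21.3 to 27.6 RPKM in 5 libraries and at 62.9 RPKM in Scx-/- 2. SNORD24, Snord15b, the SNORD86 on chromosome 14, SNORD77 and both SNORD50 copies of highest level had log2 fold changes from -0.35 to 0.85.

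The genotypes were compared gene by gene with limma on log2(RPKM + 0.1), two-sided, and genes were called at an unadjusted p under 0.05, the threshold of the study. Of the 133 members, 17 were called (12.8%), against 3.89% of all 18810 genes. The members called were 15 higher in Scx-/-, against 2.82% of all genes, and 2 lower, against 1.06%. After Benjamini-Hochberg adjustment over all genes, 0 members and 0 genes were under 0.05, and the smallest adjusted p of a member was 0.173. Other short genes were also called more often than the table as a whole, at 30 of 222 H/ACA box snoRNAs (13.5%) and 78 of 925 other genes up to 200 nt (8.43%). Of these, 13 H/ACA box snoRNAs were higher and 17 lower, and 34 other short genes were higher and 44 lower. Whether the classes differ in direction was not tested.

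The median log2 fold change of the members was 0.50, against 0.10 for all genes, -0.17 for H/ACA box snoRNAs and -0.13 for the other short genes. It was 0.39 when the median ratio of each library was set to 0, which took the median of all genes to 0.00 and called 17 members against 3.43% of genes. The fitted difference was above 0 in 87 members (65.4%) and below 0 in 46. It was above 0 in 63.8% of all genes, a share near that of the members. A genotype had no read at all in 22 members, 17 of which had more than 3 reads in the other genotype. With those at their bound and the other 5 left out, the median was 0.50. The median rested on Scx-/- 2, without which it was 0.00, and was 0.37 without Scx+/+ 2.

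Genotypes did not overlap in 13 members (9.77%), 11 higher and 2 lower in Scx-/-, against 9.5% of all genes. This share of members was near that of the table. Of the 17 called members 12 did not overlap. Their reads summed to 290, 394 and 316 in Scx-/- and to 144, 35 and 97 in Scx+/+, values that chose them. Called members were thinly counted, with mean reads from 2.80 to 33.4, and 13 had a mean under 20 reads. Among the 33 members that averaged 20 reads or more, 4 were called (Snord42b, SNORD81, SNORD113 and SNORD78, all higher) against 3.85% of all genes so filtered.

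**Figure D2:**
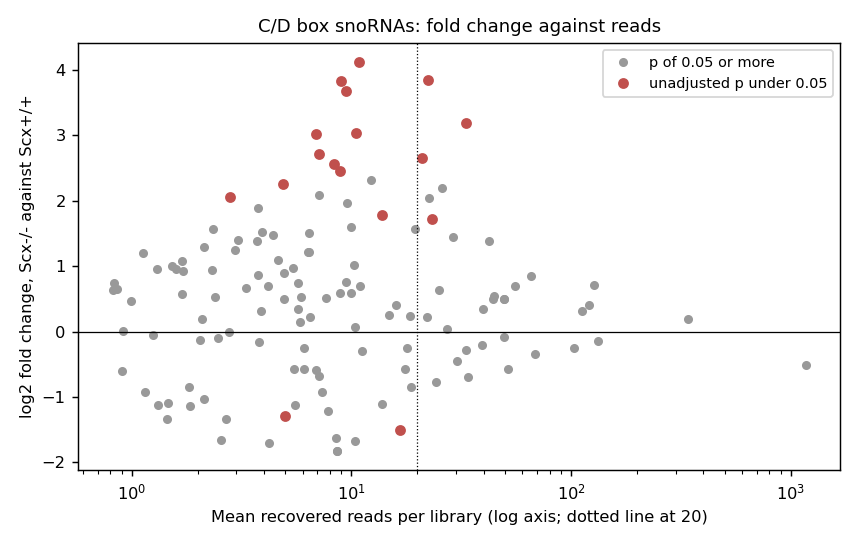
Log2 fold change of Scx-/- against Scx+/+ (vertical axis) of each of the 133 C/D box snoRNAs against its mean recovered reads per library (horizontal log axis). Red points are the 17 members at an unadjusted p under 0.05, 13 of which lie left of the dotted line at 20 reads.

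Scx+/+ 2 stood apart among the called members too. Of the 15 members called as higher in Scx-/-, 13 had no read in Scx+/+ 2, while 4 had none in Scx+/+ 1 and 5 none in Scx+/+ 3. Of all 133 members, 79 had no read in Scx+/+ 2, 38 in Scx+/+ 1 and 47 in Scx+/+ 3. Members called as higher were selected in part by low Scx+/+ values. Without Scx+/+ 2, 19 members were called, 12 higher and 7 lower, against 8.23% of all genes, and 12 of the first 17 were among them.

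Of the called members, 6 stayed called whichever library was left out. The predicted U13 copy on chromosome 18 (snoU13, ENSMUSG00000088952) had 31, 18 and 14 reads in Scx-/- and no read in any Scx+/+ library. Taking 3 reads over the 3 Scx+/+ libraries as the floor, it was at least 20.5-fold higher in Scx-/- (adjusted p = 0.173, limma). That floor covers counting error only, and the median ratio of variance to mean within genotypes was 10.9. U13 has been linked to the maturation of small-subunit rRNA. The canonical Snord13 gene was at 0.735, 3.30 and 2.25 RPKM in Scx-/- and 0.320, 3.31 and 0.982 RPKM in Scx+/+, with genotypes that overlapped. Each of the other 4 predicted U13 copies had reads in only 1 or 2 libraries.

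Snord99, a methylation guide for rRNA hosted by the non-coding Snhg12, was at 3.87, 6.46 and 1.13 RPKM in Scx-/- (15, 32 and 5 reads). It had 1 read in Scx+/+ 3 and none in the other Scx+/+ libraries, a log2 fold change of 3.82 ± 0.62 (SE, adjusted p = 0.446). SNORD59, in an intron of the ATP synthase gene Atp5b, was the only one of the 6 with reads in all libraries, at 7.75, 4.84 and 2.71 RPKM in Scx-/- and 1.35, 1.16 and 1.38 RPKM in Scx+/+. Its Scx+/+ values lay close together, and the log2 fold change was 1.78 ± 0.37 (SE). SNORD101, in an intron of the ribosomal protein gene Rps12, had 14, 4 and 7 reads in Scx-/- and 2, 0 and 2 in Scx+/+ (log2 fold change 2.25 ± 0.63, SE).

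SNORD29, from Snhg1, had 2, 31 and 22 reads in Scx-/- and 1, 0 and 0 in Scx+/+, a log2 fold change of 3.68 ± 0.83 (SE). Snord104 had 2, 13 and 24 reads in Scx-/- and 1, 0 and 1 in Scx+/+, a log2 fold change of 3.02 ± 0.75 (SE). In both, Scx-/- 1 lay next to the Scx+/+ libraries, within 1 read of the highest, and the other Scx-/- libraries stood apart. Except for the U13 copy, at 0.173, and Snord99, the adjusted p of every called member was 0.967.

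**Figure D3:**
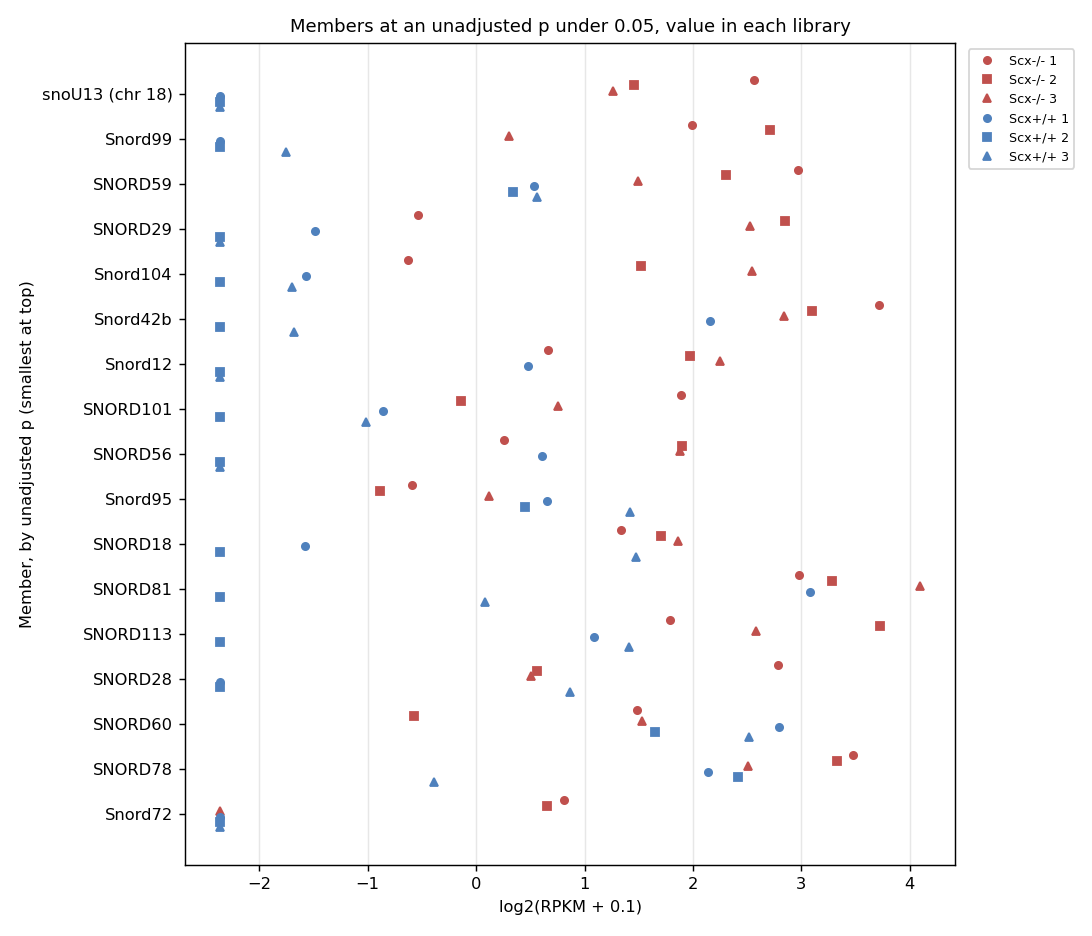
Value of each of the 17 called members in the 6 libraries on the scale log2(RPKM + 0.1), with red for Scx-/- and blue for Scx+/+. Points at the left edge have no read. Scx+/+ 2 is there for 13 of the 15 members that were higher in Scx-/-, and lacked reads for 79 of all 133 members.

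The other called members that were higher did not keep the call in all 6 fits with a library dropped. Snord42b and Snord12 kept it in 5, SNORD113 in 4, SNORD56 in 2, and SNORD18, SNORD81, SNORD28, SNORD78 and Snord72 in 1. Snord42b, hosted by the ribosomal protein gene Rpl23a, had 47, 39 and 29 reads in Scx-/- and 18, 0 and 1 in Scx+/+, a log2 fold change of 3.84 ± 0.99 (SE). Snord12, an rRNA methylation guide hosted by 1500012F01Rik on chromosome 2, was at 1.49, 3.81 and 4.65 RPKM in Scx-/- and 1.30 RPKM in Scx+/+ 1, with no read in the other 2. SNORD81, from Gas5, had 31, 49 and 77 reads in Scx-/- and 38, 0 and 5 in Scx+/+, so that Scx+/+ 1 lay within the range of Scx-/-. SNORD56, SNORD18 and SNORD28 overlapped between genotypes as well.

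SNORD113 on the X chromosome, a copy outside the chromosome 12 cluster, was at 3.36, 13.1 and 5.88 RPKM in Scx-/- and 2.03, 0.0949 and 2.56 RPKM in Scx+/+, where 0.0949 stands for no read. SNORD78, from Gas5, was at 11.0, 9.95 and 5.58 RPKM in Scx-/- and 4.29, 5.22 and 0.663 RPKM in Scx+/+. Snord72, in an intron of Rpl37, had 7, 8 and 0 reads in Scx-/- and none in Scx+/+. Against a floor of 3 reads this gives at least 4.89-fold more over the genotype, a bound that covers counting error only.

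Snord95 and SNORD60 were lower in Scx-/-. Snord95, hosted by Gnb2l1 (the ribosomal protein RACK1), had 2, 2 and 4 reads in Scx-/- and 6, 4 and 12 in Scx+/+, or 0.66 ± 0.29 against 1.77 ± 0.70 RPKM (SD, n = 3). Its log2 fold change was -1.30 ± 0.43 (SE). SNORD60 on chromosome 17 had 11, 3 and 13 reads in Scx-/- and 32, 11 and 30 in Scx+/+, or 2.02 ± 1.25 against 5.16 ± 1.94 RPKM, with a log2 fold change of -1.50 ± 0.57 (SE). Neither gene overlapped between genotypes in RPKM, and each kept its call in 3 of the 6 fits with a library dropped.

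The study listed 7 of these members by name in its own table of changed non-coding RNAs, and limma called 6 of them. That table also holds a snoU13 entry, a symbol that several genes share. Its fold change matches the ratio of mean RPKM of the chromosome 18 copy, at 3.58 in Scx-/- against 0.0949 in Scx+/+. This called copy is not among the 7. Since the study chose these RNAs on the same libraries, neither the count nor the U13 copy above is independent evidence. The seventh, Snord32a, had 0, 0 and 1 reads in Scx-/- and 1, 2 and 3 in Scx+/+ and did not pass the test.

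Members were next grouped by host. Gas5, a non-coding gene whose introns carry a series of snoRNAs, holds 9 listed members. Together they read 145, 210 and 148 RPKM in Scx-/- and 120, 82.5 and 131 RPKM in Scx+/+, with no overlap. The fitted difference was above 0 in 8 of the 9, against 63.8% of all genes. It ran from -0.57 for SNORD74 to 3.19 for SNORD81, and 2 were called. The Gas5 transcript itself was at 74.9, 87.5 and 55.6 RPKM in Scx-/- and 62.4, 29.1 and 61.4 RPKM in Scx+/+ (log2 fold change 0.57 ± 0.31, SE), and was not called. Both the transcript and its snoRNAs were lowest in Scx+/+ 2 and highest in Scx-/- 2. Members such as SNORD81 and SNORD44 overlap an annotated exon of a host, so their reads and those of the transcript could not be told apart.

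The 8 members of Snhg1, another non-coding host, summed to 77.7, 123 and 108 RPKM in Scx-/- and 71.0, 57.4 and 71.2 RPKM in Scx+/+, again with no overlap. All 8 differences were above 0, against 63.8% of all genes. They ran from 0.19 for Snord22 to 3.68 for SNORD29, and 2 were called (SNORD29 and SNORD28). SNORD27, which guides methylation of small-subunit rRNA, had 61, 109 and 18 reads in Scx-/- and 30, 7 and 28 in Scx+/+ and did not pass the test. The Snhg1 transcript was at 19.2, 29.8 and 18.04 RPKM in Scx-/- and 15.3, 16.8 and 18.4 RPKM in Scx+/+, and the genotypes overlapped. Here too members such as SNORD29 and SNORD28 overlap an exon of a host, with the same limit.

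Members in ribosomal protein genes did not share a direction. The 4 members of Rpl4 summed to 15.9, 9.72 and 15.3 RPKM in Scx-/- and 6.21, 0.892 and 7.72 RPKM in Scx+/+, and SNORD18 was called. The 4 members of Rpl13a (Snord32a, Snord33, Snord34 and Snord35a), known for a part in the response to lipid and oxidative stress, summed to 2.74, 6.23 and 8.23 RPKM in Scx-/- and 10.8, 15.5 and 12.3 RPKM in Scx+/+. Their fitted differences were all below 0, and 0 of the 4 were called. Snord34, the most abundant, had 9, 26 and 20 reads in Scx-/- and 25, 48 and 18 in Scx+/+. Rpl13a mRNA was at 87.2 ± 10.7 RPKM in Scx-/- and 87.9 ± 21.3 RPKM in Scx+/+ (SD, n = 3). The members of Rpl7a depended on the library, with 74 reads in Scx-/- 2, 53 in Scx+/+ 2 and 13 or fewer in the other 4.

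**Figure D4:**
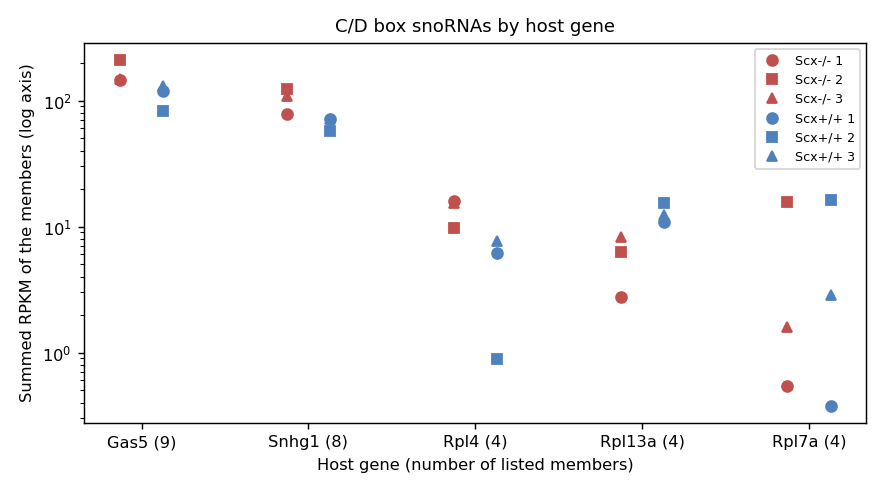
Summed RPKM (log axis) of the members in each of 5 host genes, with the number of listed members in brackets, by library. Gas5, Snhg1 and Rpl4 have all Scx-/- sums above all Scx+/+ sums, and Rpl13a has them below.

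Counts by group are to be read against 3.89% of all genes called, 2.82% as higher and 1.06% as lower. Of the 60 listed host genes, 4 were higher in Scx-/- (Nop56, Gnl3, Snhg5 and Prpf39) and 0 lower, and the median log2 fold change of the hosts was 0.14. The 27 members in non-coding hosts had 5 called, all higher, and a median of 0.59. The 30 members in ribosomal protein genes had 4 called, also all higher, and a median of 0.30. Members that overlapped an annotated exon were called in 9 of 51 (8 higher) and intronic members in 4 of 67 (4 higher), with medians of 0.54 and 0.49. Among the 15 members outside other genes 4 were called, 3 of them higher.

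The 7 members grouped here as linked to maturation of the rRNA precursor were not called. These are Snord118 (U8), Snord13 (U13), 4 Snord14 genes (U14) and Snord22 (U22). Snord118, which acts in maturation of the large-subunit rRNA, had 27, 31 and 9 reads in Scx-/- and 27, 99 and 11 in Scx+/+, so that Scx+/+ 2 alone was high. Snord14d, hosted by the heat-shock gene Hspa8, was the steadiest, with 19, 18 and 37 reads in Scx-/- and 19, 20 and 19 in Scx+/+. Guides for the U6 spliceosomal RNA were represented by Snord7, Snord67 and SNORD94, of which 0 were called, and SNORD94 had 2, 7 and 20 reads in Scx-/- and 0, 0 and 8 in Scx+/+. Of the imprinted snoRNAs on chromosome 7, Snord64 and SNORD107 were listed at 7 reads or fewer in every library. The annotation holds 164 genes of the Snord115 and Snord116 families, which are known from neurons, and 0 of them were in the table.

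Of the members that averaged 20 reads or more, those that varied most across libraries were Snord42b, SNORD81, Snord45c, Snord16a and SNORD25, with SDs of log2(RPKM + 0.1) of 2.12 to 2.62. Snord45c, hosted by Rabggtb, varied within both genotypes, at 3, 51 and 8 reads in Scx-/- and 80, 0 and 21 in Scx+/+. Snord16a had 69, 11 and 33 reads in Scx-/- and 8, 0 and 33 in Scx+/+, and SNORD25 had 26, 51 and 15 against 21, 0 and 22. All 5 had no read in Scx+/+ 2.

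The protein partners were measured on mRNAs with far more reads. Nop56, a core protein whose gene is also a host, was at 24.1, 19.9 and 21.2 RPKM in Scx-/- and 16.6, 15.1 and 13.1 RPKM in Scx+/+. The genotypes did not overlap, the log2 fold change was 0.54 ± 0.17 (SE), and Nop56 was the only core protein gene called. Fbl, the methyltransferase, was at 19.5 ± 4.86 against 13.5 ± 3.74 RPKM, Nop58 at 88.0 ± 9.79 against 68.5 ± 13.1 RPKM and Nhp2l1 at 31.4 ± 2.64 against 25.03 ± 3.33 RPKM (SD, n = 3). These 3 did not pass. The fitted difference of all 4 was above 0, against 63.8% of all genes, with a median of 0.45 against 0.10 for all genes.

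Of the 11 assembly and transport factors, 2 were higher in Scx-/- (Rpap3, of the R2TP chaperone complex, and Phax, an export adaptor for small RNAs) and 0 lower, against 2.82% of all genes higher and 1.06% lower. Phax was at 23.9 ± 1.64 RPKM in Scx-/- and 16.2 ± 2.02 RPKM in Scx+/+ (SD, n = 3). Of the 14 listed trimming and intron turnover genes, 3 were higher (Skiv2l2, Exosc1 and Exosc9, of the nuclear exosome and its helicase) and 0 lower, against the same shares. Exosc9 was at 26.7 ± 2.34 RPKM in Scx-/- and 19.5 ± 1.64 RPKM in Scx+/+. The 4 proteins of the U3 particle and the 4 core proteins of H/ACA box snoRNAs had 0 called, with median log2 fold changes of 0.11 and 0.06. All of these genes had adjusted p-values above 0.05.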

How the data were processed

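Total RNA from atrioventricular canal regions was sequenced as 6 libraries. The authors aligned reads to mm9 with TopHat 1.4.1, counted them over Ensembl exons with easyRNASeq and deposited RPKM values. Their methods describe a minimum of about 50 reads per gene in some library and a floor equal to 10 reads. The table does not hold to these for short genes: 101 members stayed under 50 reads, and its lowest value, 0.0949 RPKM, stands for at most 0.781 reads of a member, so it was read as no read. Selection of RNA by size or polyadenylation is not given in the sources used here, and reads of RNAs this short depend on it.

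Identifiers were matched to the GENCODE annotation of mm9, 18695 of 18810. Reads were recovered as whole multiples of RPKM, exon length and depth. Of values under 1000 reads, 98.5 to 98.6% came within 0.1 of a whole read. Reads served as description and no count test was run.

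Genotypes were compared with limma 3.58.1 (R 4.3.3) on log2(RPKM + 0.1) with an intensity trend and no covariate over all genes. The pseudocount shrinks fold changes of low genes. The fit was tested on simulated data. Python 3.11.15 did the rest. Alternatives were pseudocounts of 0.01 and 1, minima of 1 RPKM and 20 reads, no trend, one-way ANOVA, quantile normalization, median ratio, a length and GC spline, a block for replicate number, and dropping each library in turn. Thinning of detection was added after seeing the data.

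Named were called members (the rest of the 17 after the 12 of smallest p were added after their values were seen), the 10 of highest RPKM, those in the study's table, processing and Rpl13a members, hosts of 3 or more members, core proteins and the 5 of largest spread. Members and lists were chosen with earlier results of these data known. A pair of members is not reported here.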

Additional observations from a re-analysis of the deposited data

How the results depend on the processing

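The number of called members was 17. It stayed at 16 to 18 under both pseudocounts, no trend, quantile normalization, the median ratio and the length and GC spline. Those fits called 3.43 to 3.92% of the genes tested. The number was 16 of 85 members with the minimum of 1 RPKM, against 4.11% of genes so filtered. It fell to 4 of 33 with a minimum of 20 reads, since fewer members were tested, and to 8, against 4.6% of all genes, by one-way ANOVA, the kind of test the study names, on log2(RPKM + 0.1); the cause of the latter was not tested. With libraries left out the number of called members ranged from 12 to 19, against 2.87 to 8.23% of all genes. The median log2 fold change ranged from 0.00 (without Scx-/- 2) to 0.70. The log2 ratio of summed RPKM ranged from 0.08 (without Scx-/- 2) to 0.32, and was 0.09 with summed reads. The replicate number did not pair the samples, with correlations of same-numbered deviations of 0.09, -0.22 and -0.19. As a replicate block it gave 21 called members, all 17 among them, against 3.05% of all genes. With libraries left out, the log2 fold change of SNORD44 ranged from -0.18 to 0.60 and that of Snord22 from -0.16 to 0.73, with -0.01 without Scx-/- 2. Snord22 was called without Scx-/- 1, and Snord17, from -0.99 to -0.18, without Scx+/+ 1. Most members had few reads, and a change in them may have been missed. The smallest change that the test could show for them was not measured.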

Other observations

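RNAs with C/D boxes that carry other symbols were measured in the same table. The snoU97 gene on chromosome 7 was at 148, 245 and 357 RPKM in Scx-/- and 214, 524 and 388 RPKM in Scx+/+, above every member, and it was not called. U3, which is needed for the first cleavages of the rRNA precursor, had 4 copies of like level on chromosome 11. The copy ENSMUSG00000070243 was at 22.7, 35.3 and 41.6 RPKM in Scx-/- and 31.1, 123 and 47.6 RPKM in Scx+/+. Of 12 U3 genes, 4 others were called, all lower in Scx-/-, against 1.06% of all genes called as lower. The near-equal values of these 4 mean that they may share reads. ENSMUSG00000065629 was at 1.34, 3.07 and 4.77 RPKM in Scx-/- and 4.98, 24.2 and 4.57 RPKM in Scx+/+, so the genotypes overlapped. Without Scx+/+ 2, 0 of these 4 were called by limma, with log2 fold changes from -0.79 to -0.74. Like Snord17 and Snord118, snoU97 and the U3 genes described here were highest in Scx+/+ 2. Not all U3 genes were, as ENSMUSG00000088309 and ENSMUSG00000064776 had no read in that library.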
